A study of Mus musculus with 6 samples.

Results

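Fibroblast growth factor (FGF) ligands and receptors were measured in mouse oviductal epithelial cells carrying either an empty vector or a plasmid with the p53 R273H mutant. The 10 genes were the ligands Fgf1, Fgf2, Fgf7, Fgf9, Fgf10 and Fgf18 and the receptors Fgfr1, Fgfr2, Fgfr3 and Fgfr4, chosen by name from 24567 genes with a usable symbol. Each was read from the row of the authors' table that carries its symbol, and for Fgf10, which has 2 rows, from the one with the higher mean over all arrays. Both lines came from the same parental oviductal cells, which keep their own Trp53 gene, and were selected with antibiotic after transfection. The empty vector line carried pCMV-Neo and gave 3 arrays, and the p53 R273H line gave 3 arrays. Selection was clonal, how many clones went into either line was not stated, and plasmid and clone cannot be told apart. RNA came from consecutive passages, so that p-values reflect passage-to-passage spread of 1 line each. The medium held 10% serum, 2 μg/ml of epidermal growth factor (EGF), 5 μg/ml of insulin and 20 ng/ml of estradiol. The protocol names no added FGF. R273H swaps an arginine that contacts DNA for a histidine in p53, a transcription factor that restrains the growth of damaged cells.

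FGF ligands are secreted proteins that bind receptor tyrosine kinases together with heparan sulfate chains on the cell surface. The bound receptor phosphorylates the adaptor FRS2 and starts the RAS-MAPK cascade, which in turn raises Sprouty, Spred and dual-specificity phosphatase genes that dampen the signal, and the ETS factors Etv4 and Etv5. Fgf7 and Fgf10 are usually made by stroma and act on epithelium through a splice form of Fgfr2 called IIIb, while the IIIc form, typical of mesenchyme, binds other ligands such as Fgf2, Fgf9 and Fgf18. In the developing reproductive tract of the mouse, FGF signals pass between stroma and epithelium. The deposited values summarise a whole gene in 1 number, so splice forms were not resolved here.

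Values are the authors' log2 expression, where a difference of 1 is a 2-fold change. Array medians ranged from 4.51 to 4.58, and genes had a typical within-group SD of 0.15 (the median over all of them). Trp53 itself, whose probes are not given and may or may not read the plasmid, was at 10.06 ± 0.07 in the empty vector line and 9.39 ± 0.10 in the other (SD, n = 3 per group). It was thus called lower in the p53 R273H line, with a log2 difference of -0.68 (limma adjusted p = 0.0017). The median of all transcript clusters was 4.53, and the files do not say which signals exceed background. As a guide to dim signals, 1119 olfactory receptor genes, which few tissues express, had a median of 2.82 and a 95th percentile of 4.43.

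The epithelial label was checked against marker genes. Pax8, a factor of the oviductal secretory lineage, had levels of 10.21 ± 0.06 in control cells and 10.48 ± 0.03 in p53 R273H cells, and the simple-epithelium keratin Krt18 was at 11.02 ± 0.05 and 11.27 ± 0.12 (SD, n = 3 per group). Epcam, at 4.05 and 4.03, and the splice regulator Esrp1, at 3.88 and 3.80, were in both lines below the median of 4.53, and E-cadherin Cdh1 was at 5.04 and 5.23. Pecam1 and Ptprc, which mark endothelium and leukocytes, were at 4.68 and 4.67 and at 3.5 and 4.1. Of 11 fibroblast markers 3 rose, 3 fell and 5 did not pass the test, and their mean log2 level lay between 5.05 and 5.21 on the empty vector arrays and between 4.94 and 5.12 on the p53 R273H arrays. The brightest of them, Ly6a, was at 10.79 ± 0.10 in the control line and 6.0 ± 0.33 with p53 R273H. Cd34, at 6.74 and 4.44, and Col1a2, at 5.60 and 4.56, fell as well. Dcn, a matrix proteoglycan, went the other way, from 3.32 ± 0.13 to 8.02 ± 0.05, with Pdgfra at 4.72 and 5.82 and Col1a1 at 5.35 and 6.07. Of 10 epithelial markers 1 rose and 2 fell: Krt7 was higher, at 7.98 and 9.78, and Krt8, at 10.42 and 9.24, and Krt19, at 8.82 and 6.31, were lower. Of 8 oviductal markers 2 rose and 5 fell, and Pax8 was the only one short of the threshold. The hormone receptors Pgr, at 3.48 and 9.67, and Esr1, at 4.52 and 8.13, rose. The glycoprotein Ovgp1, at 6.21 and 4.93, and Wt1, at 7.66 and 5.73, fell, as did Foxj1, at 5.86 and 4.99, Msln, at 10.36 and 9.44, and Pax2, at 8.0 and 7.55. Cd34, Col1a2, Dcn, Pdgfra, Col1a1, Krt7, Krt19 and the oviductal markers other than Pax8 were named after their values were seen. Of 7 endothelial markers 2 rose and 1 fell, as did those of 7 leukocyte markers, where the brightest were Kdr, at 4.53 and 6.29, and Cd14, at 9.20 and 9.62. For all genes tested the shares were 11.9% higher and 11.7% lower. Pdgfra, Kdr and the other endothelial marker that rose lie on chromosome 5. There 516 of 906 genes with a group mean above 4.53 were called higher, and the part of this shift in the 3 markers was not tested. The part of the marker genes in the results on FGF genes was not tested either.

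In the p53 R273H line the receptors Fgfr2 and Fgfr4 and the ligand Fgf7 were lower and the ligand Fgf18 was higher, while 6 of the 10 genes did not pass the test. Calls rest on limma with Benjamini-Hochberg adjustment over all genes and a threshold of 0.05. The 4 called genes compare with 23.7% of all genes tested, with 11.9% called higher and 11.7% called lower. Genes with a group mean above 4.53, the median of all transcript clusters, were called more often: 2707 of 14893 higher and 2731 lower. Of the 10 genes 2 had both means under 4.53. Called changes of at least 2-fold were seen for 3 of the 10 and for 5.56% of all genes. For 6 of the 10 the arrays of one line all lay on one side of the other line's, as for 38.1% of all genes. The median log2 difference of the 10 genes was 0.11, beside 0.02 for all genes. An exact permutation test of a single gene cannot go below p = 0.1 with 3 arrays against 3, and that value was reached by each of the 6 genes without overlap.

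The bases just before the annotated start of the 4 called genes are shown so that their differences in composition can be seen. They were taken from a RefSeq table of build GRCm38.p6, cover 250 bases each, are written 5′ to 3′ on the gene's strand, and have any match to the motifs searched in capitals. The windows lie at chr7:130266809-130267058 for Fgfr2 (minus strand), chr13:55152568-55152817 for Fgfr4 (plus strand), chr2:126034408-126034657 for Fgf7 (plus strand) and chr11:33147401-33147650 for Fgf18 (minus strand).
Fgfr2: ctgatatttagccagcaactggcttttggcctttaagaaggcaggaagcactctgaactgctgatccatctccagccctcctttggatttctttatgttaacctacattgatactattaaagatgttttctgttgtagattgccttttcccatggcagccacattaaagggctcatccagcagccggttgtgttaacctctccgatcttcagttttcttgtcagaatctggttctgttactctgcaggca
Fgfr4: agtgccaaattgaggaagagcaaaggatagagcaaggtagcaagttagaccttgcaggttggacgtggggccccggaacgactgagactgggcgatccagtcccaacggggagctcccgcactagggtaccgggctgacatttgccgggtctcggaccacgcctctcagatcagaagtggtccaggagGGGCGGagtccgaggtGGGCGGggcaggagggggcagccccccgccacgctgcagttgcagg
Fgf7: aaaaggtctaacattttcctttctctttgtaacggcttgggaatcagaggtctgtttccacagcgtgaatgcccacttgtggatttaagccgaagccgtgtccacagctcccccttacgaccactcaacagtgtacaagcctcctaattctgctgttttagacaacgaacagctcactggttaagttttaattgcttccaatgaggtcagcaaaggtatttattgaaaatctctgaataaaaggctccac
Fgf18: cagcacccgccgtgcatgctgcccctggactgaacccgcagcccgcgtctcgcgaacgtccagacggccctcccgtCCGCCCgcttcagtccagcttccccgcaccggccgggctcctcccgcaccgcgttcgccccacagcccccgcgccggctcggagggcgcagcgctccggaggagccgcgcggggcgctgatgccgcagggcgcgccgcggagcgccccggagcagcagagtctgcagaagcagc

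The 4 windows were unlike each other. The GC content was 44.0% for Fgfr2 and 43.6% for Fgf7, below the median of 52.4% over 32841 windows of the same length, and 64.0% for Fgfr4 and 77.2% for Fgf18, above it. Fgf18 held 37 CpG pairs, Fgfr4 15, Fgf7 6 and Fgfr2 2, beside a median of 6. Both strands were searched for GGGCGG, the core of a GC box, for the TATA box TATAAA, for an E-box that Snail-type factors bind, CAGGTG, and for the p53 half-site consensus. GGGCGG was found at 2 places in Fgfr4 and 1 in Fgf18 and in 32.7% of all windows. The other motifs had no match in the 4 windows. TATAAA was held by 12.4% of all windows, the E-box by 17.2% and the p53 half-site consensus by 7.13%. Fgfr2 is annotated with a single window here. Whether the cells use these starts was not measured.

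Fgfr2, a receptor of many epithelia, showed the largest change among the 10 genes. Its log2 level was 9.01, 9.08 and 9.09 on the empty vector arrays and 6.91, 6.47 and 7.13 on the p53 R273H arrays. The groups were far apart, and the p53 R273H arrays spread more widely than the empty vector arrays. The means were 9.06 ± 0.04 and 6.84 ± 0.33 (SD, n = 3 per group), a 4.68-fold lower level with a log2 difference of -2.23 ± 0.16 (SE) and a limma adjusted p of 4.96e-05. At 6.84 the gene was still above the median of all transcript clusters. In such bulk RNA, fewer cells with the transcript and less of it per cell cannot be told apart.

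Fgfr4, the receptor best known as the partner of endocrine FGFs in liver, also fell. Log2 levels were 5.62, 5.82 and 5.72 with empty vector and 4.53, 4.84 and 4.53 with p53 R273H. The highest p53 R273H array lay below the lowest empty vector array. The means were 5.72 ± 0.10 and 4.63 ± 0.18 (SD, n = 3 per group), 2.13-fold lower, with a log2 difference of -1.09 ± 0.12 (SE) and a limma adjusted p of 0.000384. With p53 R273H the level was close to 4.53, the median of all transcript clusters, so the fold may be understated.

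Fgfr1, the receptor common in mesenchyme and in many cultured cells, had the smallest difference of the 10 genes. The log2 level was 8.18, 8.38 and 8.55 with empty vector and 8.35, 8.40 and 8.39 with p53 R273H. The p53 R273H arrays lay within the range of the empty vector arrays. The log2 difference was 0.01 ± 0.11 (SE), with a 95% interval from -0.26 to 0.27 and a limma adjusted p of 0.978, and its sign turned under quantile normalization, at -0.02.

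Fgfr3, a receptor that restrains bone growth and is active in urothelium, was dim. It was at a log2 level of 4.73, 4.23 and 4.47 with empty vector and 4.81, 5.14 and 4.68 with p53 R273H. The groups overlapped slightly. The log2 difference was 0.40 ± 0.16 (SE), with a 95% interval from 0.02 to 0.78 before adjustment, and did not pass the test (limma adjusted p = 0.132). Fgfr3 lies on chromosome 5, where 906 genes above the median had a median log2 difference of 0.46 and 516 of them were called higher. The part of this shift of the chromosome in the value of Fgfr3 was not tested.

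**Figure D1:**
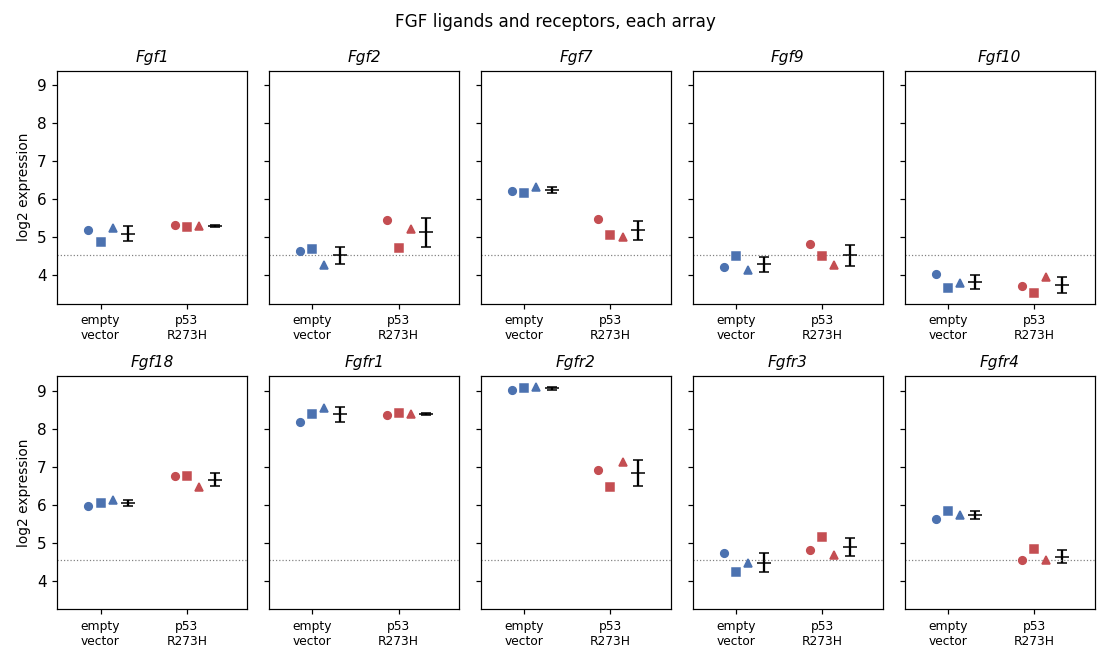
Log2 expression (y axis) of the 10 FGF genes on each array, with circles, squares and triangles for replicates 1, 2 and 3, black bars for the mean and SD of 3 arrays, and a dotted line at the median of all transcript clusters. Fgfr2 falls from about 9.06 to 6.84, Fgfr4 and Fgf7 are lower without overlap, Fgf18 is higher, and Fgf9 and Fgf10 lie near or below the dotted line.

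Fgf7, known as keratinocyte growth factor and a ligand of the IIIb form of Fgfr2, fell. Log2 levels were 6.22, 6.17 and 6.33 with empty vector and 5.48, 5.05 and 5.02 with p53 R273H. Each p53 R273H array was below each empty vector array. The means were 6.24 ± 0.08 and 5.18 ± 0.26 (SD, n = 3 per group), 2.08-fold lower, with a log2 difference of -1.06 ± 0.14 (SE) and a limma adjusted p of 0.00109. Another ligand of that form, Fgf10, a driver of branching in many organs, was dim in both lines. It read 4.04, 3.66 and 3.79 with empty vector and 3.73, 3.54 and 3.97 with p53 R273H. These values lie within the range of the olfactory receptor genes, and its second row was dimmer still, between 3.06 and 3.81. The log2 difference was -0.08 ± 0.15 (SE), with a limma adjusted p of 0.765, and it turned to 0.03 without empty vector replicate 1 and to 0.02 without p53 R273H replicate 2. A change of Fgf10 could be missed at such a level.

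Fgf18, a ligand with roles in bone and lung and a preference for IIIc forms and Fgfr3, rose. Its log2 level was 5.96, 6.04 and 6.13 with empty vector and 6.76, 6.76 and 6.45 with p53 R273H. The groups did not overlap, and 1 p53 R273H array was nearer to the controls than the others. The means were 6.04 ± 0.09 and 6.66 ± 0.18 (SD, n = 3 per group), 1.53-fold higher, with a log2 difference of 0.61 ± 0.12 (SE) and a limma adjusted p of 0.00679.

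Fgf2, basic FGF, a broad mitogen of cultured cells, had nearly the same estimate as Fgf18 but a wider spread. Its log2 level was 4.63, 4.69 and 4.26 with empty vector and 5.46, 4.72 and 5.23 with p53 R273H. The groups did not overlap, although p53 R273H replicate 2 lay only just above the highest control. The log2 difference was 0.61 ± 0.20 (SE), with a 95% interval from 0.14 to 1.08, and it did not pass the test (limma adjusted p = 0.0677). It passed without p53 R273H replicate 2, at 0.82 with an adjusted p of 0.0134, within a range from 0.0134 to 0.215 over its alternatives. Its empty vector mean was at the median of all transcript clusters.

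Fgf1, acidic FGF, which binds all 4 receptors, read 5.19, 4.87 and 5.24 in control cells and 5.33, 5.28 and 5.31 in p53 R273H cells. The groups did not overlap, but the gap was smaller than the spread of the empty vector arrays. The log2 difference was 0.21 ± 0.12 (SE) and did not pass the test (limma adjusted p = 0.277). Fgf9, a ligand of the embryonic gonad and mesothelium, was at 4.22, 4.51 and 4.14 with empty vector and at 4.82, 4.5 and 4.27 with p53 R273H. Its groups overlapped, and the log2 difference was 0.24 ± 0.16 (SE), with a limma adjusted p of 0.364. Fgf9 lies on chromosome 14, where 485 genes above the median had a median log2 difference of -0.28.

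**Figure D2:**
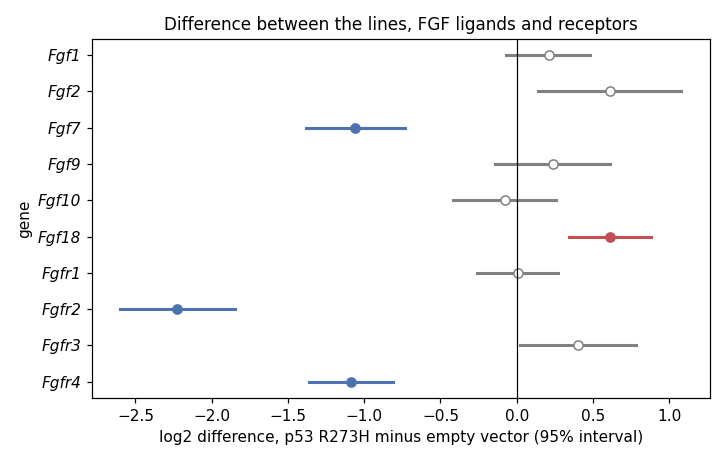
Log2 difference between the lines (x axis, p53 R273H minus empty vector) for each of the 10 FGF genes (y axis), as points with 95% intervals from limma. Filled points passed the test after adjustment: Fgfr2 at -2.23, Fgfr4 at -1.09, Fgf7 at -1.06 and Fgf18 at 0.61, while Fgfr1 lies at 0.01.

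In the authors' deposited table, which used no moderation of the variance, the step-up p-values of the called genes were 0.0079 for Fgfr2, 0.0125 for Fgfr4, 0.0269 for Fgf7 and 0.0481 for Fgf18, and those of the other 6 lay between 0.262 and 0.983.

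The genes next to the called members were read to see whether their stretch of chromosome moved with them. They were the nearest 2 protein-coding genes on each side by start position, and were chosen for their place. Around Fgfr2 on chromosome 7, none of Ppapdc1a, Wdr11, Ate1 and Nsmce4a passed the test, with log2 differences from -0.34 to 0.05. Around Fgfr4 on chromosome 13, Uimc1 fell by 0.29 ± 0.09 (SE) on the log2 scale (limma adjusted p = 0.045), and Zfp346, Nsd1 and Rab24 had differences from -0.10 to 0.15 that did not pass. Around Fgf7 on chromosome 2, Dtwd1 rose by 0.68 ± 0.12, opposite to Fgf7, and Cops2, Galk2 and Atp8b4 did not pass. Around Fgf18 on chromosome 11 none of Fbxw11, 1700008A04Rik, Npm1 and Tlx3 passed, with differences from -0.32 to 0.14. The medians of genes above the dimness limit of 4.53 were -0.06 on chromosome 7, -0.10 on chromosome 13, 0.15 on chromosome 2 and 0.00 on chromosome 11.

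The genes whose 6 values ran closest to those of Fgfr2, by Euclidean distance of values centred on each gene's mean, were Trp53inp1 (0.33), Trim7 (0.33) and Bcl3 (0.35). Their log2 differences were -2.26 ± 0.11, -2.16 ± 0.12 and -2.29 ± 0.15 (SE). Closest to Fgf18 were Rgs11 (0.08), Nat15 (0.11) and Zfand3 (0.12), with log2 differences of 0.61, 0.59 and 0.61. With 2 groups, such likeness mostly restates a group difference of the same size.

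Of 12 other secreted FGF ligands 0 passed the limma test, beside 23.7% of all genes, and 6 of them had both group means under 4.53. Their median log2 difference was 0.05. By limma 1 of them, Fgf5, had an unadjusted p under 0.05. Its means of 3.71 and 4.04 were under 4.53 in both lines. Fgf5 lies on chromosome 5, and the part of that chromosome's shift in its value was not tested. Fgf21, named like Fgf5 after its value was seen, was called higher when p53 R273H replicate 2 was left out, at 0.46 on the log2 scale (limma adjusted p = 0.028). Of 4 intracellular FGF homologous factors, which do not act through FGF receptors in the usual way and modulate sodium channels, Fgf11 was at 5.15 ± 0.04 and 4.72 ± 0.10 (SD, n = 3 per group), a fall with a log2 difference of -0.43 ± 0.09 (SE, limma adjusted p = 0.0135). Without empty vector replicate 1 its adjusted p was 0.0503, and it ranged from 0.00547 to 0.0503 over its alternatives.

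Among 8 coreceptors and FGF-binding proteins 2 rose, 2 fell and 4 did not pass, with a median of -0.08. The shares over all genes were 11.9% higher and 11.7% lower. With a group mean above 4.53 they were 2707 and 2731 of 14893, and 1 of the 8 had both means under 4.53. Fgfbp1, a secreted carrier that releases FGFs from the matrix, was at 3.90, 4.35 and 4.21 with empty vector and at 6.04, 6.14 and 6.12 with p53 R273H. The groups were far apart, a log2 difference of 1.94 ± 0.13 (SE, limma adjusted p = 2.89e-05), and since the lower mean is under 4.53 the fold is not exact. Fgfrl1, an FGF receptor-like protein without a kinase domain, was at 7.84, 7.88 and 7.77 and at 9.03, 8.91 and 8.99, rising 2.22-fold. Fgfbp1 and Fgfrl1 both lie on chromosome 5. Flrt2, a membrane protein of the FLRT family whose members bind FGF receptors, was at 6.59, 6.71 and 6.85 with empty vector and at 4.73, 4.70 and 4.29 with p53 R273H, 4.41-fold lower.

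Heparan sulfate genes moved in both directions. Of 28 core proteins and enzymes 11 fell, 5 rose and 12 did not pass, with a median of -0.15. Among all genes 11.7% were called lower and 11.9% higher. Genes with a group mean above 4.53 were called more often, 2731 of 14893 lower and 2707 higher. Of the 28 genes 4 had both means under 4.53. The glypican Gpc1, a membrane-anchored heparan sulfate core protein, was at 8.82, 8.73 and 8.83 with empty vector and at 6.26, 6.09 and 6.10 with p53 R273H. It fell 6.25-fold by its brightest row, a log2 difference of -2.64, and by -1.91 as the mean over all its rows. The 2 endosulfatases, which trim 6-O-sulfate groups that FGF receptors need, went opposite ways. Sulf2 fell 4.0-fold, from 9.47 ± 0.02 to 7.47 ± 0.13, and Sulf1 rose 3.06-fold, from 4.23 ± 0.12 to 5.84 ± 0.09 (SD, n = 3 per group), with the lower mean under 4.53. Of the 4 syndecans 3 fell and none rose. Of the 6 glypicans 2 fell and 2 rose, among them Gpc6, at 6.79 and 7.76, 1.95-fold higher. Gpc2, at 4.64 and 5.07, and Hpse, at 4.85 and 6.15, were called higher and lie on chromosome 5. Gpc6, Gpc2 and Hpse were named after their values were seen, and the part of that chromosome's shift in Gpc2 and Hpse was not tested. The number of heparan sulfate genes called higher dropped from 5 to 3 without any 1 of the empty vector replicates or without p53 R273H replicate 2.

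Of 14 adaptors and relay proteins 4 rose, 1 fell and 9 did not pass, with a median of 0.28. Over all genes 11.9% rose and 11.7% fell. Among genes with a group mean above 4.53, as all 14 had, 2707 of 14893 rose and 2731 fell. Ptpn11, the phosphatase SHP2 that docks on FRS2, rose from 9.38 ± 0.05 to 10.18 ± 0.02 and lies on chromosome 5. The adaptor Crkl rose from 8.72 ± 0.15 to 9.42 ± 0.05 (SD, n = 3 per group). The adaptor Frs2 itself, named after its value was seen, had a log2 difference of 0.03 ± 0.09 (SE). Grb14, an adaptor that binds activated receptors, was at 4.91, 5.01 and 4.76 with empty vector and 4.08, 4.61 and 4.13 with p53 R273H, a log2 difference of -0.62 ± 0.16 (SE). Its limma adjusted p of 0.0246 rose to between 0.0718 and 0.0832 without empty vector replicate 1 or 2 or without p53 R273H replicate 1 or 3. It was 0.0567 with every row tested by itself and 0.108 without moderation of the variance, and ranged from 0.00437 to 0.108 over its alternatives.

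Feedback inhibitors and target genes of the pathway were mostly higher in the p53 R273H line, where Fgfr2 and Fgfr4 were lower. Of 16 measured genes 13 rose, 2 fell and 1 did not pass, beside 11.9% and 11.7% of all genes, with a median of 0.82. Among genes with a group mean above 4.53, 2707 of 14893 rose and 2731 fell, and 2 of the 16 had both means under 4.53. These genes also respond to other receptors that feed the MAPK cascade. Etv5, an ETS transcription factor, was at 5.00, 5.14 and 5.30 with empty vector and at 8.16, 7.99 and 8.05 with p53 R273H. The rise was 7.58-fold, a log2 difference of 2.92 ± 0.11 (SE, limma adjusted p = 1.73e-06), and the mean over all its rows gave 1.72. Spred2, an inhibitor of RAS-MAPK signalling, was at 7.09, 6.79 and 6.92 and at 8.71, 8.45 and 8.45, rising 3.03-fold. Spred1 was at 7.08, 6.73 and 6.67 and at 8.10, 8.13 and 8.39, rising 2.61-fold.

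All 4 Sprouty genes rose, by 0.72 to 1.34 on the log2 scale, and so did all 3 Spred genes, by 0.61 to 1.6. Spry3, at 3.45 and 4.38, was under 4.53 in both lines and may not exceed background. Myc fell 2.16-fold, from 10.76 ± 0.04 to 9.65 ± 0.07 (SD, n = 3 per group), and the other gene that fell was the phosphatase Dusp4, named after its value was seen, at -0.40 on the log2 scale. Leaving out empty vector replicate 2 or 3 or p53 R273H replicate 3 left 1 gene of the list called lower.

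Among 4 splice regulators that shape FGF receptor transcripts, 2 fell, beside 11.7% of all genes. Of genes with a group mean above 4.53, 2731 of 14893 fell. Esrp2, an epithelial regulator that favours the IIIb form, was at 7.04, 7.31 and 7.22 with empty vector and at 6.65, 6.53 and 6.52 with p53 R273H, a log2 difference of -0.62 ± 0.10 (SE, limma adjusted p = 0.00344). Rbfox2, at 8.20, 8.18 and 8.19 and at 7.49, 7.89 and 7.34, differed by -0.62 ± 0.14 (SE, limma adjusted p = 0.0168). Its adjusted p was 0.0533, 0.0509 and 0.055 without empty vector replicate 1, empty vector replicate 3 and p53 R273H replicate 1, and the range over its alternatives was 0.000664 to 0.0804. Ptbp1, which represses the IIIb exon, had a log2 difference of 0.08 ± 0.09, and Esrp1 had -0.08 ± 0.10, both short of the threshold.

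**Figure D3:**
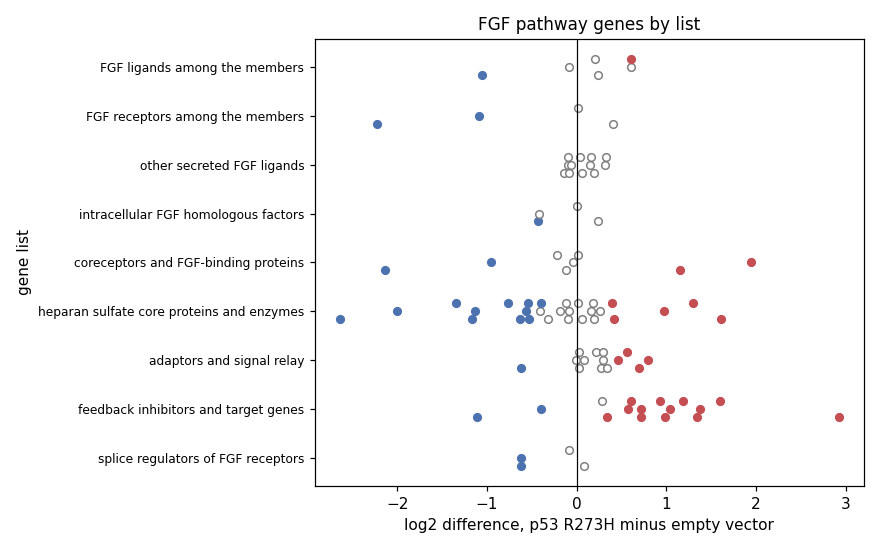
Log2 difference between the lines (x axis) for each gene of the FGF members and the 7 pathway lists (y axis). Red points were called higher and blue points lower in the p53 R273H line, and open points did not pass. Feedback inhibitors and target genes lie mostly to the right, with 13 called higher, while secreted ligands outside the members cluster near 0.

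**Figure D4:**
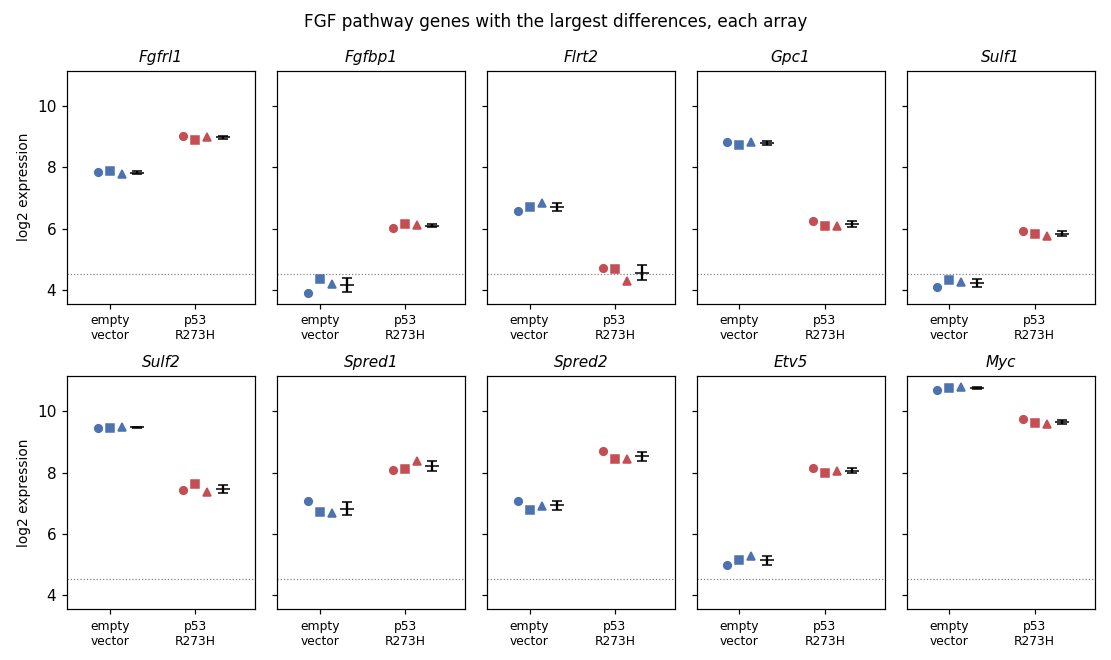
Log2 expression (y axis) on each array for the pathway genes with the largest differences among coreceptors, heparan sulfate genes and feedback genes, with replicate symbols, mean and SD as for the members and a dotted line at the median of all transcript clusters. Gpc1, Sulf2, Flrt2 and Myc are lower and Fgfrl1, Fgfbp1, Sulf1, Spred1, Spred2 and Etv5 are higher in the p53 R273H line, with no overlap between groups.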

How the data were processed

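RNA was labelled with the Affymetrix WT PLUS kit, per the labels' protocols, and 6 arrays were deposited as log2 values of 41345 transcript clusters. No source used here states the array model or the normalization. A log2 scale follows from the deposited ratio, whose log2 equals the difference between group means to within 6.64e-05. The authors' comparison table gives, per the file headers, that ratio, a signed fold (a score), a p-value and its step-up adjustment.

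Symbols came from that table. A spreadsheet had turned 25 symbols into dates, of which 20 were restored by sequence identifier. The 14313 rows without a symbol and 147 rows whose annotation names several genes were left out, although long annotation cells are cut off. For symbols with several rows the brightest row on average was taken, with no filter on dim genes, leaving 24567 genes. The comparison used limma 3.58.1 under R 4.3.3 (lmFit, eBayes, two-sided, no covariates), tested first on simulated data, with Benjamini-Hochberg adjustment over all genes. The number of arrays limits the precision.

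The genes and lists were chosen with earlier results of these data known. Named genes are the 10 members, for every list its 3 largest called changes plus the top one going the opposite way, all splice regulators, and the 3 nearest by pattern. Of 87 listed pathway genes 86 were matched to a row, Fosl1 not. Neighbouring genes, motifs and olfactory receptor levels were added after the data were seen. A RefSeq table of build GRCm38.p6 gave chromosomes and sequences before the start, the latter for 8 of the 10 members; the deposited files name no build. Same-numbered arrays of the groups did not deviate together (correlations of deviations -0.071, 0.012 and 0.003), and a replicate block served only as an alternative. Alternatives were other scalings, filters on dim genes, other handling of several rows per symbol, other variance models, that block and leaving out each array.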

Additional observations from a re-analysis of the deposited data

How the results depend on the processing

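Fgfr2, Fgfr4, Fgf7 and Fgf18 kept their direction and passed the threshold under all 15 alternatives, with log2 differences from -2.37 to -2.04, from -1.19 to -1.04, from -1.20 to -0.97 and from 0.56 to 0.71. Fgf2 also passed once the dimmest 30 percent of genes were dropped (0.61, adjusted p = 0.0421), under the trended, robust variance model (0.61, adjusted p = 0.0261) and without p53 R273H replicate 2 (single arrays left out gave 0.45 to 0.82). The count of members called was 4 to 5 and that of pathway genes 35 to 50. Fgfr1 was -0.02 after quantile normalization, and leaving out single arrays gave -0.09 to 0.10 for Fgfr1 and -0.19 to 0.03 for Fgf10. The cause was not tested. With the replicate block 4926 genes were called in place of 5814, with 4 members as before and 38 pathway genes in place of 43. Same-numbered arrays did not deviate together, and the block changed no call of a member. With a trended and robust variance 9 adaptors were called higher, and without moderation 3 heparan sulfate genes were. Filters on dim genes left no value for Fgf2, Fgf9 and Fgfr3 at the 50th percentile and for Fgf10 at either. Signals near 4.53 limit what can be said of Fgf9, Fgf10 and Fgfr3.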
